A study of Homo sapiens with 18 samples.

Results

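The 3 libraries of KBM7 cells treated with dCeMM-1 were compared with the 3 libraries of cells given only the solvent DMSO. These 6 of the 18 RNA-sequencing libraries in the series were taken by their labelled treatment, DMSO or Hit4, and the series' design text equates Hit4 with dCeMM-1. KBM7 is a human chronic myelogenous leukaemia (CML) cell line, kept here in serum-containing medium. Both groups had 5 h of exposure, dCeMM-1 at 10 times its EC50 (the labels do not say in which assay the EC50 was measured) and DMSO as the only treatment of the controls. Polyadenylated RNA was sequenced, and synthetic ERCC and SIRV RNAs had been added as spike-ins. The labels speak of triplicates without saying whether these were separate cultures, so a p-value here measures the spread between libraries, which may be technical.

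Molecular glue degraders bring a protein to a ubiquitin ligase that would not otherwise recognise it, and dCeMM-1 is known to act on RBM39 in this way. RBM39 is a U2AF-related RNA-binding protein of early splice site recognition, and the ligase is CRL4 with the substrate receptor DCAF15, the same receptor that aryl sulfonamide drugs such as indisulam use. The comparison with DMSO asks what the RNA of the cells looked like after such a treatment. These data count RNA, not protein, so the loss of RBM39 protein cannot be read from them.

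Gene counts in the 6 libraries ranged from 4598576 to 17423169, with DMSO replicate 3 the shallowest at 18325 genes detected against 22225 to 23221 in the other 5. Markers of the line were present: MYB averaged 804 and PTPRC 442 CPM (counts relative to library size, scaled by TMM, a method that holds the bulk of genes level between libraries) in DMSO, and BCR and ABL1, the fusion partners of CML, averaged 47.3 and 87.2. Neither BCR nor ABL1 passed the test (log2 fold changes of -0.07 and -0.03, SE 0.09 for both). Of 21 markers of other cell types, 5 (DCN, HBB, HBA1, HBG1 and PPBP) had no count in any of the 6 libraries, while CD3D, KRT18 and PECAM1 were well above 0. The summed level of these 21 markers was 177 to 190 CPM with DMSO and 145 to 155 with dCeMM-1. Of the 10 that could be tested, 3 were called lower (CD3D, KRT18, PECAM1), beside 14.8% of all tested genes. A change in the make-up of the cultures and a change in RNA per cell cannot be told apart in bulk RNA.

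dCeMM-1 changed many genes, most of them by a small amount. Of 15055 tested genes, 2482 were higher (16.5%) and 2229 lower (14.8%) than in DMSO at an adjusted p under 0.05 in edgeR's quasi-likelihood test with Benjamini-Hochberg adjustment over all tested genes. Only 409 of the 4711 called genes moved at least 2-fold, 305 up (2.03% of tested genes) and 104 down (0.691%). The balance of rises and falls over all calls depends on the scale, with 2158 higher and 2535 lower by DESeq2 size factors and 2784 and 1768 by library size alone. The groups did not overlap, meaning all 3 dCeMM-1 libraries on one side of all 3 DMSO libraries, at 3585 genes with dCeMM-1 higher (23.8%) and 3099 with it lower (20.6%).

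Spike-in reads took the same share of the library in both groups, 0.179% ± 0.0200 (SD, n = 3) of gene and spike-in counts with DMSO and 0.176% ± 0.0193 with dCeMM-1 (exact two-sided permutation p = 1, where 3 against 3 libraries cannot go below 0.1). Scaling by spike-in counts in place of TMM moved the median over all genes by 0.07 (log2). With that scale the SE of a single gene was wider (0.20 in place of 0.07 for RBM39), and 426 genes were called higher (2.83%) and 202 lower (1.34%), so that 67.8% of the calls were rises against 52.7% by TMM. Without DMSO replicate 1 the spike-in scale gave 77 rises, and without DMSO replicate 2 it gave 49 falls. No gene was called in opposite directions by the 2 scales. Log2 fold changes below are on the TMM scale unless the spike-in scale is named.

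**Figure D1:**
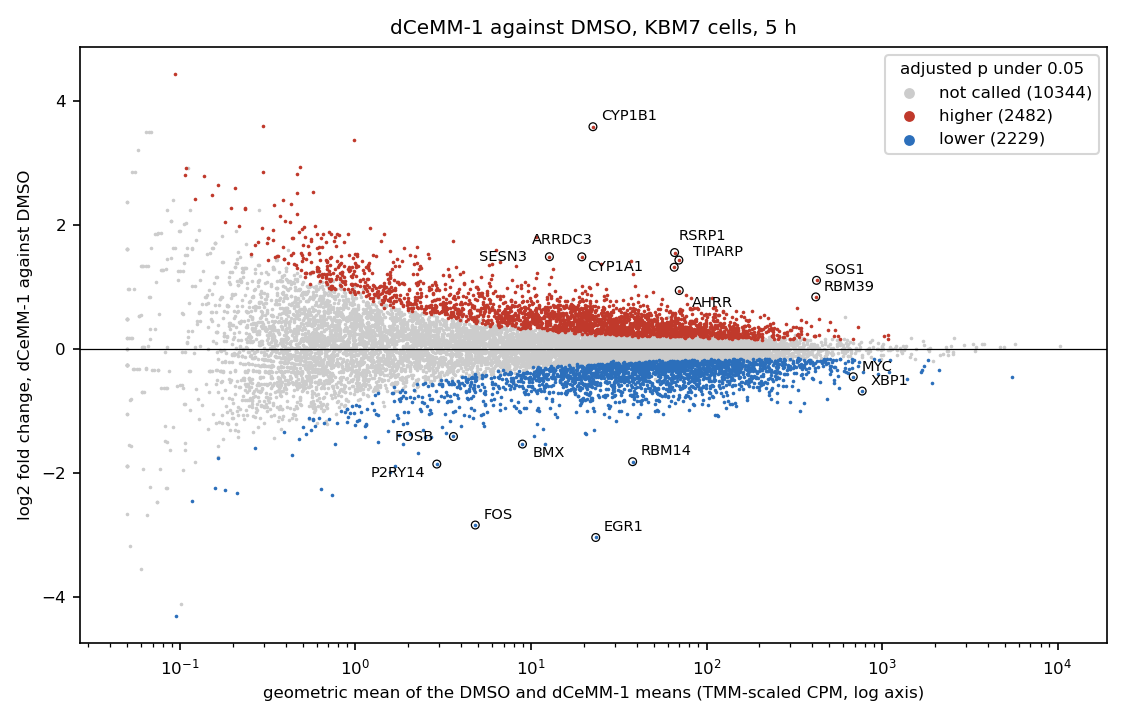
Log2 fold change of dCeMM-1 against DMSO (vertical axis) for each of 15055 tested genes against the geometric mean of the 2 group levels in TMM-scaled CPM (horizontal log axis, means set to at least 0.05), with genes at an adjusted p under 0.05 in red (2482 higher) or blue (2229 lower). Among genes with a mean of at least 5 CPM in the higher group, CYP1B1 stands apart at the top and EGR1 and FOS at the bottom; wider points at the left are genes of very low level.

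The aryl hydrocarbon receptor (AHR) is a ligand-activated transcription factor that pairs with ARNT and binds a short DNA element holding the core GCGTG. Its targets include the cytochrome P450 genes CYP1A1 and CYP1B1, whose enzymes oxidise aromatic compounds, and 2 feedback inhibitors, the repressor AHRR and the ADP-ribosyltransferase TIPARP. To show where this core lies, the 250 bases before the start of 3 of the targets that rose are printed 5′ to 3′ on the gene's strand (RefSeq, GRCh38.p14), with each GCGTG or its reverse complement CACGC in capitals. The windows are chr15:74725529-74725778 on the minus strand for CYP1A1, chr5:321464-321713 on the plus strand for AHRR and chr3:156674340-156674589 on the plus strand for TIPARP.
CYP1A1: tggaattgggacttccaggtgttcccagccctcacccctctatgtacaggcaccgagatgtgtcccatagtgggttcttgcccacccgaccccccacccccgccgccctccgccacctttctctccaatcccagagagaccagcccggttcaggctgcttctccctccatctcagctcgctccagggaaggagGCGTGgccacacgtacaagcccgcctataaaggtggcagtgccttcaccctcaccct
AHRR: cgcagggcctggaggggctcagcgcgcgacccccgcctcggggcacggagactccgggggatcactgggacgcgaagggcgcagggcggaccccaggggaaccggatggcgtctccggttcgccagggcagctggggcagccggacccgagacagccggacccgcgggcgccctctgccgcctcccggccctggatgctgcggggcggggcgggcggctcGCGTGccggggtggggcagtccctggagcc
TIPARP: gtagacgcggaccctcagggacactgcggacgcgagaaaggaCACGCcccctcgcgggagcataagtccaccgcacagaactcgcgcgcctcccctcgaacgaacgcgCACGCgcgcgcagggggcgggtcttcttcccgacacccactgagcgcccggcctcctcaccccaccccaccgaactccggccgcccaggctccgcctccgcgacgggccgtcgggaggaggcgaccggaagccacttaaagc
CYP1A1 and AHRR held 1 core each and TIPARP held 2, on the opposite strand. The core is short, and 31.92% of all 27305 promoter windows of this length held it on either strand. Among genes of this comparison it was in 44% of the windows of those called higher, 48.89% of those called lower and 45.25% of those not called, so the 3 windows above describe these genes only.

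CYP1B1 (chr2:38066973-38109902, minus strand) had the largest rise that the naming rule found. It stood at 8.04, 5.74 and 5.37 CPM in DMSO replicates 1 to 3 and at 77.3, 78.5 and 83.0 in the dCeMM-1 libraries, which all lay far above the DMSO range. This was a 12.03-fold rise, a log2 fold change of 3.59 (SE 0.11) and 3.71 on the spike-in scale. RMDN2, which overlaps CYP1B1 on the opposite strand, averaged 0.461 CPM with DMSO and 1.02 with dCeMM-1 and did not pass the test.

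CYP1A1 was at 42.2, 45.8 and 35.1 CPM in DMSO and at 105, 103 and 105 with dCeMM-1, a log2 fold change of 1.32 (SE 0.09). TIPARP was at 47.4, 38.1 and 41.4 CPM in DMSO and at 116, 109 and 119 with dCeMM-1 (log2 fold change 1.43, SE 0.10). AHRR went from 47.1, 56.0 and 47.7 CPM to 92.8, 102 and 97.2 (log2 fold change 0.94, SE 0.09). The groups did not overlap for any of the 3, each kept its call on the spike-in scale, and their adjusted p-values in edgeR's test were 2.1e-14, 1.0e-11 and 2.0e-10.

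The receptor itself did not pass the test: AHR was at 37.8, 29.96 and 32.8 CPM in DMSO and at 31.3, 31.6 and 31.4 with dCeMM-1 (log2 fold change -0.10, SE 0.09). Its partner ARNT rose by 0.27 (SE 0.08), a call that the spike-in scale did not keep. NQO1, a quinone reductase that AHR and NRF2 both regulate, had a log2 fold change of 0.23 (SE 0.12) and overlapped between groups. Of the 13 genes on the AHR list, 10 could be tested. Of these, 5 were higher and 1 lower, beside 16.5% and 14.8% of all tested genes. The 1 lower was KYNU, at -0.42 with an adjusted p of 0.049 in edgeR's test, a call lost in most alternatives. The list's median log2 fold change was 0.31 beside 0.03 for all genes tested. CYP1A2, ALDH3A1 and EREG were too low to test, with at most 5 counts in any library.

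**Figure D2:**
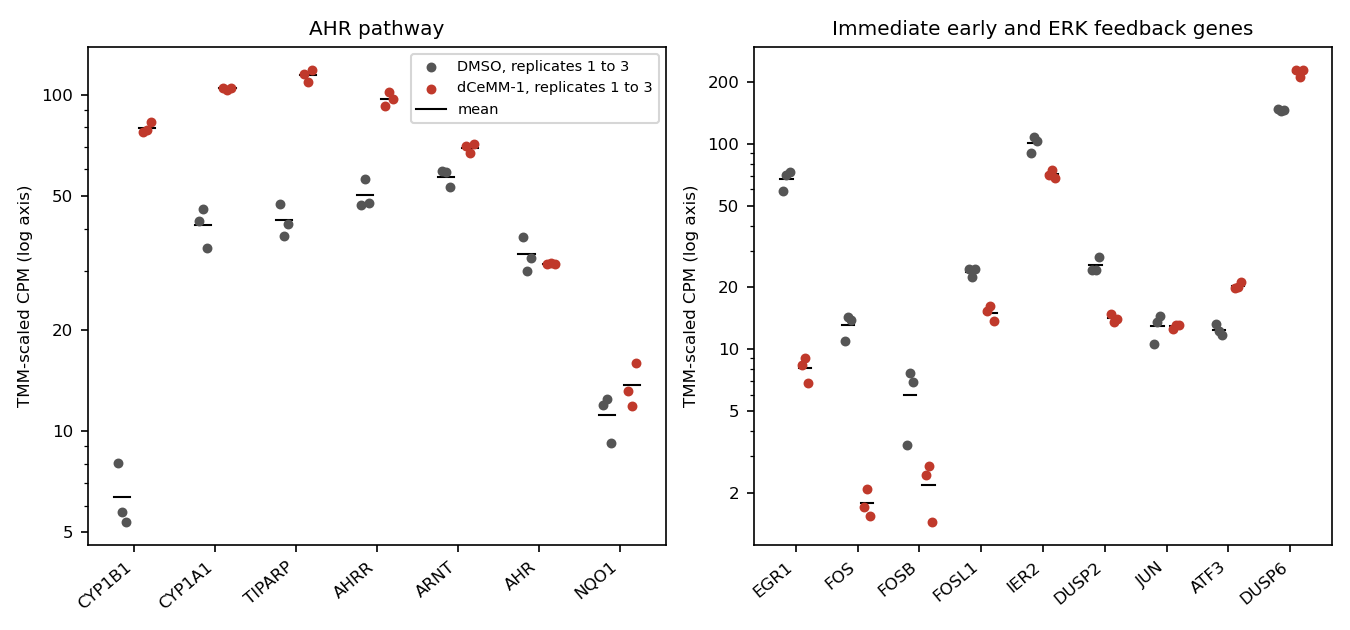
TMM-scaled CPM (log axis) of 7 AHR pathway genes (left) and 9 immediate early or ERK feedback genes (right) in each DMSO library (grey) and each dCeMM-1 library (red), with group means as bars. CYP1B1 lies at 5.37 to 8.04 with DMSO and at 77.3 to 83.0 with dCeMM-1, whereas EGR1 lies at 59.0 to 73.2 and 6.81 to 9.08.

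Immediate early genes are transcribed within minutes of growth factor signalling through RAS and ERK, without new protein synthesis, and many are switched on by serum response factor at a CArG box. EGR1, a zinc finger factor of this class, had the largest fall that the naming rule found. Its 250 bases before the start are printed because they hold the element for which this class is known (chr5:138465229-138465478, plus strand, RefSeq, GRCh38.p14, 5′ to 3′), with matches to the CArG box in capitals.
EGR1: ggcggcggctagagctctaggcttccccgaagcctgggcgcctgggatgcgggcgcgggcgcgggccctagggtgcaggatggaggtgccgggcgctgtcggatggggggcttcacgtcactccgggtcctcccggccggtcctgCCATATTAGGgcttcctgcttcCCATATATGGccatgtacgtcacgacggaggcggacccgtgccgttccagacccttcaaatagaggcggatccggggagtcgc
The window held 2 matches, an element found on either strand in 1.15% of all 27305 windows. It was in 1.211% of the windows of genes called higher, 1.224% of those called lower and 0.8948% of those not called. The same window of FOS and of FOSB held no match, which says only that these letters are not within 250 bases of the start used.

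EGR1 was at 59.0, 70.4 and 73.2 CPM in DMSO and at 8.40, 9.08 and 6.81 with dCeMM-1. The groups lay far apart, an 8.26-fold fall with a log2 fold change of -3.05 (SE 0.11). FOS, a subunit of the AP-1 transcription factor, was at 10.9, 14.4 and 13.8 CPM in DMSO and at 1.71, 2.08 and 1.54 with dCeMM-1 (log2 fold change -2.85, SE 0.15). Both were called on the spike-in scale as well, with log2 fold changes of -3.02 and -2.82.

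FOSB was at 3.41, 7.67 and 6.90 CPM in DMSO and at 2.43, 2.68 and 1.44 with dCeMM-1, so DMSO replicate 1 lay close to the treated libraries (log2 fold change -1.42, SE 0.24). Other members of the FOS branch of AP-1 fell less: FOSL1 by 0.66 (SE 0.10) and FOSL2 by 0.47 (SE 0.12) on the log2 scale. IER2 fell by 0.50 (SE 0.11) and JUNB by 0.31 (SE 0.08). JUN, the usual partner of FOS, did not pass the test and averaged 12.9 CPM in both groups (log2 fold change 0.04, SE 0.13).

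The class did not fall as a whole. Of 27 tested members, 8 were lower (29.6%) and 6 higher (22.2%), beside 14.8% and 16.5% of all tested genes. Their median log2 fold change was -0.02 beside 0.03 for all genes. ATF3, a stress-induced bZIP factor, was at 13.2, 12.3 and 11.7 CPM in DMSO and at 19.9, 20.04 and 21.1 with dCeMM-1 (log2 fold change 0.70, SE 0.10). ARC rose at a low level, from a mean of 0.701 CPM to 1.97 (log2 fold change 1.31, SE 0.28). BTG2, an anti-proliferative factor, rose by 0.60 (SE 0.14) and KLF6 by 0.41 (SE 0.11). On the spike-in scale 3 members were lower (EGR1, FOS and FOSB) and 2 higher (ATF3 and ARC), beside 1.34% and 2.83% of all tested genes.

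The list of ERK feedback genes, which also held genes that are not feedback inhibitors, such as CCND1, ETV4 and MAFF, was also divided. DUSP6, a cytoplasmic phosphatase that inactivates ERK, was at 148, 145 and 146 CPM in DMSO and at 228, 212 and 230 with dCeMM-1 (log2 fold change 0.61, SE 0.07). DUSP2, a nuclear phosphatase of the same family, was at 24.3, 24.3 and 28.2 CPM in DMSO and at 14.9, 13.5 and 14.1 with dCeMM-1 (log2 fold change -0.83, SE 0.11). Both were called on either scale. CCND1, encoding cyclin D1, fell by 0.71 (SE 0.17), ETV4 fell by 0.42 (SE 0.09) and MAFF rose by 0.79 (SE 0.15). Of 19 tested members, 5 were higher (26.3%) and 6 lower (31.6%), beside 16.5% and 14.8% of all tested genes. Without DMSO replicate 1 only 2 were higher, and without dCeMM-1 replicate 3 only 3 were. Leaving out DMSO replicate 2 gave 3 higher and 3 lower.

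SOS1, the exchange factor that loads RAS with GTP, was named after its values were seen, since it hosts the gene with the largest rise among those of other types. SOS1 was at 304, 283 and 278 CPM in DMSO and at 615, 617 and 633 with dCeMM-1 (log2 fold change 1.11, SE 0.07). SOS1-IT1, annotated as a sense intronic RNA within SOS1, was at 6.13, 5.43 and 5.37 CPM in DMSO and at 19.2, 19.9 and 21.0 with dCeMM-1 (log2 fold change 1.81, SE 0.15). Both lie on the minus strand, so reads from unspliced SOS1 RNA and from SOS1-IT1 cannot be told apart in gene counts. Of the other genes not typed as protein-coding that the naming rule found, the pseudogene AC132008.2 went from 14.7, 13.99 and 18.8 CPM to 39.7, 36.1 and 42.1 (log2 fold change 1.37, SE 0.11). TRGC1, a T-cell receptor gamma constant segment, went from 32.5, 29.1 and 26.4 CPM to 14.3, 15.1 and 15.3 (log2 fold change of -0.996, SE 0.11), and TRG-AS1, an RNA antisense to that locus, fell by 1.06 (SE 0.16).

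The mRNA of the degraded protein was higher with dCeMM-1. RBM39 was at 313, 309 and 319 CPM in DMSO and at 568, 546 and 568 with the compound, with no overlap (log2 fold change 0.84, SE 0.07, and 0.90 on the spike-in scale). RBM23, its paralogue and another known substrate of DCAF15 with sulfonamides, rose by 0.24 (SE 0.07), from a mean of 111 to 131 CPM, and was not called on the spike-in scale. Of the ligase parts, 3 were not called: the receptor DCAF15 was at 0.05 on the log2 scale (SE 0.09), the adaptor DDB1 at -0.16 (SE 0.06, adjusted p of 0.052 in edgeR's test) and DDA1 at 0.00 (SE 0.09). CUL4A, the scaffold, fell by 0.37 (SE 0.06) while CUL4B rose by 0.37 (SE 0.09), and NAE1, a subunit of the enzyme that activates NEDD8 for cullins, fell by 0.46 (SE 0.08). None of these last 3 kept its call on the spike-in scale.

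Among 27 tested factors of early splice site recognition, 4 were higher (14.8%) and 8 lower (29.6%), beside 16.5% and 14.8% of all tested genes. Their median log2 fold change was -0.04. PRPF39, a protein of the U1 particle, was at 87.3, 77.1 and 78.0 CPM in DMSO and at 144, 139 and 147 with dCeMM-1 (log2 fold change 0.82, SE 0.10). TIA1 rose by 0.57 (SE 0.09) and SF3B1, the branch point factor, by 0.43 (SE 0.07). SF3A3 fell by 0.48 (SE 0.06), PUF60, which works beside U2AF at the polypyrimidine tract, by 0.46 (SE 0.09) and RBM10 by 0.36 (SE 0.08). PRPF39 alone of this list kept its call on the spike-in scale. U2AF1, which has a near-identical gene copy, had 0 to 6 counts per library and was not tested.

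SR proteins, which bind exonic enhancers, had 4 members higher (23.5%) and 1 lower (5.88%) of 17, beside 16.5% and 14.8% of all tested genes. TRA2A was at 88.7, 91.4 and 79.7 CPM in DMSO and at 144, 134 and 138 with dCeMM-1 (log2 fold change 0.67, SE 0.07), SRSF11 rose by 0.41 (SE 0.07) and SRSF7 fell by 0.21 (SE 0.06). Of 25 hnRNP genes, 5 were higher and 8 lower; without dCeMM-1 replicate 1 or without DMSO replicate 2, 3 were higher. HNRNPL went from 51.9, 62.9 and 60.8 CPM to 91.4, 91.1 and 88.5 (log2 fold change 0.63, SE 0.08). HNRNPAB fell by 0.60 (SE 0.07), RBMX by 0.40 (SE 0.07) and HNRNPU by 0.39 (SE 0.05). On the spike-in scale TRA2A and HNRNPL were higher, and none of the 8 hnRNP falls kept its call.

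The list of splicing kinases also held RSRP1, which is not a kinase. RSRP1, a small arginine- and serine-rich nuclear protein, was at 35.2, 39.4 and 41.2 CPM in DMSO and at 108, 114 and 115 with dCeMM-1 (log2 fold change 1.56, SE 0.12). TMEM50A, which overlaps its end on the other strand, was at 0.11 (SE 0.07) and not called. CLK4 went from 19.95, 19.3 and 18.8 CPM to 34.6, 33.8 and 37.2 (log2 fold change 0.86, SE 0.10), and CLK1 rose by 0.65 (SE 0.09). CLK genes are known to make a share of their RNA as intron-retaining transcripts, which gene counts do not separate. SRPK1, the cytoplasmic kinase of the same substrates, fell from 208, 195 and 205 CPM to 141, 140 and 142 (log2 fold change -0.52, SE 0.06). Of the 13 tested genes of this list, RSRP1 included, 5 were higher (38.5%) and 2 lower (15.4%). The shares over all tested genes were 16.5% and 14.8%. RSRP1, CLK4 and CLK1 kept their calls on the spike-in scale. Without dCeMM-1 replicate 3, 3 of the list were higher.

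Paraspeckles are nuclear bodies built on the RNA NEAT1, and 7 of the 14 genes on their list were lower beside a background of 14.8%. RBM14, a paraspeckle protein and transcriptional coactivator, was at 65.8, 74.1 and 74.7 CPM in DMSO and at 19.7, 20.3 and 20.3 with dCeMM-1. This log2 fold change of -1.82 (SE 0.08) was the only call of the list that held on the spike-in scale (-1.78). RBM14-RBM4, a readthrough gene on the same strand, was not called, and the counts do not show how reads shared by both were treated. PSPC1 fell by 0.65 (SE 0.07) and SFPQ by 0.40 (SE 0.06). CIRBP was the 1 member higher, while NEAT1 itself was at 59.7, 86.0 and 75.1 CPM in DMSO and 89.3, 99.5 and 84.0 with dCeMM-1, overlapping and not called (log2 fold change 0.31, SE 0.16).

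Genes that host small nucleolar RNAs in their introns, many of whose spliced RNAs are targets of nonsense-mediated decay (NMD), were higher at 11 of 16 and lower at 0, beside backgrounds of 16.5% and 14.8%. Their median log2 fold change was 0.35. TAF1D was at 263, 250 and 275 CPM in DMSO and at 402, 409 and 427 with dCeMM-1 (log2 fold change 0.65, SE 0.07). SNHG1 rose by 0.56 (SE 0.07), SNHG5 by 0.46 (SE 0.08) and GAS5 by 0.42 (SE 0.06). TAF1D alone was called on the spike-in scale. Some genes that overlap these hosts on the opposite strand rose as well. ZBTB37, opposite GAS5, rose by 0.45 (SE 0.12), and C11orf54 and CEP295, opposite TAF1D, by 0.25 and 0.24 (SE 0.08 for both). MED17, also opposite TAF1D, was not called at -0.10 (SE 0.08). Of 16 NMD and exon junction factors, 3 were lower and 1 higher (6 lower with the 6 libraries alone).

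**Figure D3:**
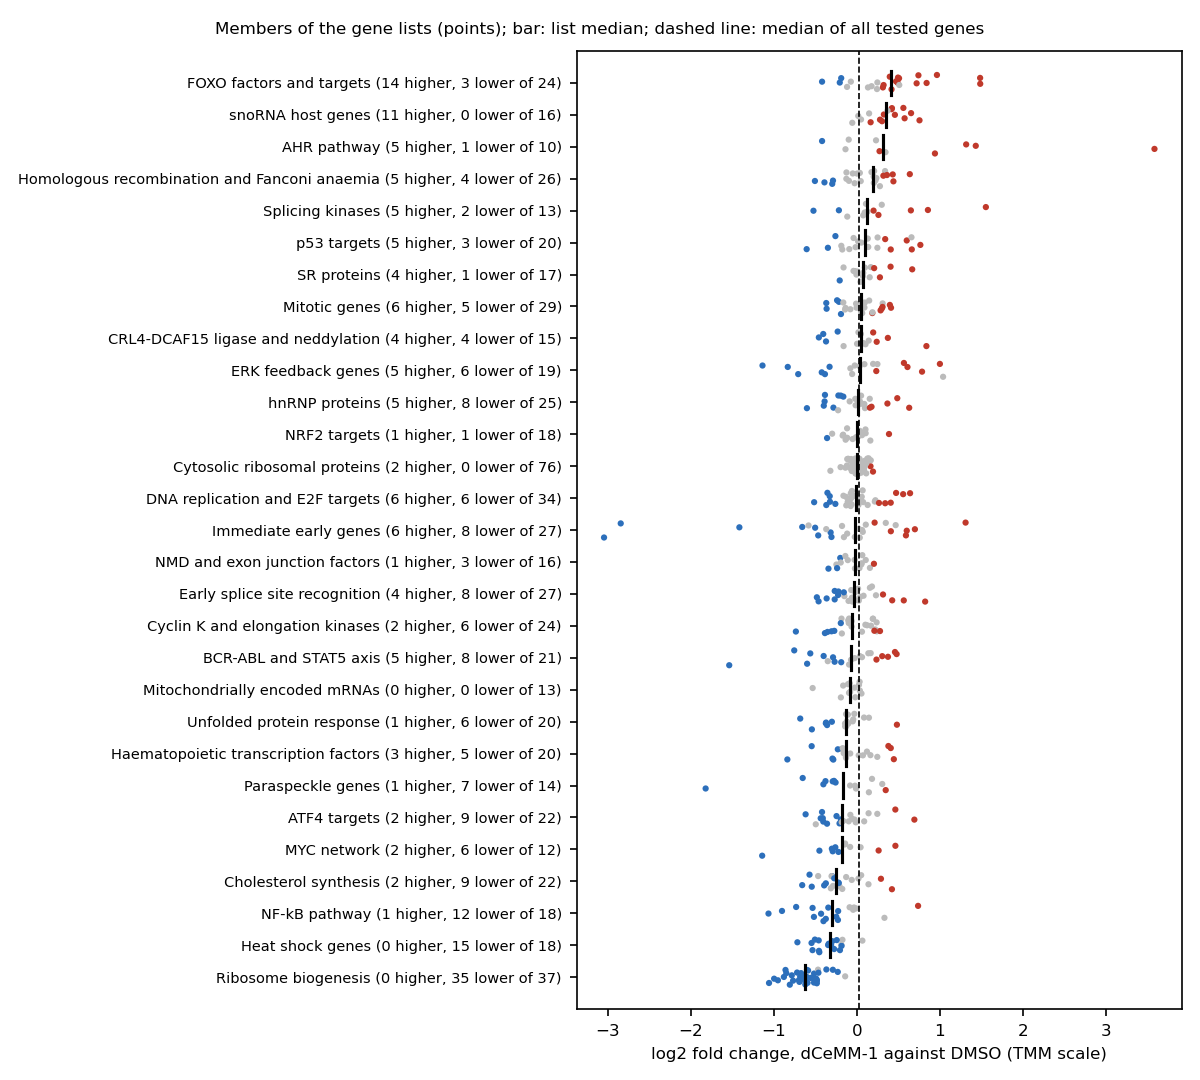
Log2 fold change of dCeMM-1 against DMSO for the tested members of 29 gene lists, ordered by the list median (black bar), with members called higher in red, lower in blue and not called in grey; the dashed line is the median of all tested genes. Ribosome biogenesis genes lie to the left (0 higher, 35 lower of 37) and FOXO factors and targets to the right (14 higher, 3 lower of 24). Over all tested genes 16.5% were higher and 14.8% lower.

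FOXO transcription factors are held out of the nucleus by PI3K and AKT signalling and act on genes of growth arrest and stress. Of 24 tested FOXO factors and targets, 14 were higher (58.3%) and 3 lower (12.5%), beside 16.5% and 14.8% of all tested genes. Their median log2 fold change was 0.41. SESN3, a sestrin that restrains mTORC1, was at 7.35, 7.31 and 8.43 CPM in DMSO and at 20.005, 21.5 and 21.7 with dCeMM-1 (log2 fold change 1.49, SE 0.12). ARRDC3, an alpha-arrestin, was at 12.03, 12.1 and 10.35 CPM in DMSO and at 34.0, 29.2 and 35.9 with dCeMM-1 (log2 fold change 1.49, SE 0.14). CCNG2 rose by 0.84 (SE 0.11), KLHL24 by 0.72 (SE 0.08) and INSR, the insulin receptor, by 0.49 (SE 0.10). FOXO1 rose by 0.50 (SE 0.12) and FOXO4 by 0.47 (SE 0.11). BCL2L11, the pro-apoptotic target BIM, went the other way and fell by 0.42 (SE 0.09). On the spike-in scale 5 members were higher and 0 lower, beside 2.83% and 1.34% of all tested genes.

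The axis from BCR-ABL through STAT5, which drives CML cells, showed changes in both directions, 5 higher (23.8%) and 8 lower (38.1%) of 21. The shares over all tested genes were 16.5% and 14.8%. BMX, a TEC family tyrosine kinase, was at 16.5, 14.1 and 15.1 CPM in DMSO and at 5.25, 5.01 and 5.48 with dCeMM-1 (log2 fold change -1.54, SE 0.13). STAT5A fell by 0.60 (SE 0.08), OSM by 0.75 (SE 0.09) and CCND2 by 0.40 (SE 0.09). Feedback inhibitors of the same pathway rose, CISH by 0.46 (SE 0.07), SOCS1 by 0.48 (SE 0.11) and SOCS2 by 0.31 (SE 0.07). PIM1 was not called at 0.14 (SE 0.06). BMX alone was called on the spike-in scale, and 5 members were lower without DMSO replicate 2 or without dCeMM-1 replicate 3.

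Among markers of the line, KIT, the stem cell factor receptor, rose from 23.7, 19.5 and 23.2 CPM to 35.6, 34.98 and 35.8 (log2 fold change 0.70, SE 0.10). CD34 fell at a low level, from a mean of 2.28 CPM to 0.790 (log2 fold change -1.51, SE 0.33). SPI1, the myeloid factor PU.1, fell by 0.54 (SE 0.08) and PTPRC, encoding CD45, by 0.26 (SE 0.07). Among haematopoietic transcription factors, RUNX3 rose by 0.45, GFI1 by 0.41 and HOXA9 by 0.38. GATA1, the erythroid and megakaryocytic factor, fell from a mean of 3.95 to 2.22 CPM (log2 fold change -0.84, SE 0.21). Beside 16.5% and 14.8% of all tested genes, 3 of 20 such factors were higher and 5 lower. Without DMSO replicate 2 or dCeMM-1 replicate 3, 3 of them were lower, with the 6 libraries alone 9 were, and on the spike-in scale 0 were called.

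The other genes with the largest rises by the naming rule were of mixed function and low to moderate level. ZBED8, derived from a transposase, went from 1.85, 1.98 and 2.11 CPM to 7.74, 5.46 and 6.60 (log2 fold change 1.75, SE 0.20). LPAR6, a lysophosphatidic acid receptor whose gene lies inside RB1 on the other strand, went from 22.1, 22.02 and 24.3 CPM to 56.9, 56.6 and 67.0 (1.42, SE 0.15), while RB1 was not called at 0.12 (SE 0.08). REC8, a meiotic cohesin subunit, rose by 1.35 (SE 0.18) beside a fall of 0.80 (SE 0.22) in IPO4, which overlaps it on the opposite strand. CIP2A, an inhibitor of the phosphatase PP2A, went from 27.0, 23.5 and 24.3 CPM to 58.4, 53.7 and 62.1 (1.21, SE 0.10). BMF, a pro-apoptotic BH3-only protein, rose by 1.17 (SE 0.13), the transcription factor PLAG1 by 1.23 (SE 0.16) and the leptin receptor LEPR by 1.1997 (SE 0.17).

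Large falls also crossed several functions. P2RY14, a receptor for UDP-glucose inside MED12L on the other strand, went from 6.07, 5.32 and 5.17 CPM to 1.44, 1.39 and 1.76 (log2 fold change -1.86, SE 0.22), while MED12L was not called at -0.18 (SE 0.09). DEPTOR, an inhibitory subunit of mTOR complexes, went from 33.5, 33.1 and 32.2 CPM to 11.9, 13.3 and 13.0 (-1.37, SE 0.09). SLC19A1, the reduced folate carrier, went from 33.3, 39.7 and 35.5 CPM to 14.4, 15.3 and 14.1 (-1.31, SE 0.11). The endopeptidase ECE2 fell by 1.37 (SE 0.10), the calcium channel TRPM2 by 1.29 (SE 0.13) and DCAF4, another CRL4 receptor, by 1.17 (SE 0.08). All 20 rises and 20 falls of the naming rule kept their call in each of the 13 alternatives, the spike-in scale included.

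Ribosome biogenesis factors make and process ribosomal RNA in the nucleolus. Of 37 tested factors, 35 were lower (94.6%) and 0 higher, beside 14.8% and 16.5% of all tested genes. Their median log2 fold change was -0.62. On the spike-in scale 11 were lower, beside 1.34% of all tested genes, and the list's median was -0.55 beside 0.10 for all genes. NOP56, a core protein of box C/D small nucleolar particles, was at 408, 406 and 401 CPM in DMSO and at 224, 223 and 223 with dCeMM-1 (log2 fold change -0.86, SE 0.06). RRP9 fell by 1.06 (SE 0.09), RRP12 by 1.00 (SE 0.09), BOP1 by 0.95 (SE 0.08) and DKC1, the pseudouridine synthase, by 0.81 (SE 0.06). POLR1A, the largest subunit of RNA polymerase I, fell by 0.77 (SE 0.08) and nucleolin (NCL) by 0.49 (SE 0.06). Nucleophosmin (NPM1) was at -0.14 (SE 0.06) and not called. In the list of proteins of the ribosome itself, of 76 cytosolic ribosomal protein genes, 2 were higher and 0 lower (6 higher without DMSO replicate 1, and 5 lower with the 6 libraries alone), and the median was 0.00.

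MYC, which activates ribosome biogenesis genes, was at 777, 837 and 791 CPM in DMSO and at 587, 586 and 588 with dCeMM-1 (log2 fold change -0.45, SE 0.06). Its partner MAX fell by 0.29 (SE 0.06), and MXD1, which competes with MYC for MAX, rose by 0.47 (SE 0.10). In the MYC network 6 of 12 were lower and 2 higher, beside 14.8% and 16.5% of all tested genes. Without DMSO replicate 2 or dCeMM-1 replicate 3, 3 of the 12 were lower. None of the 12 was called on the spike-in scale.

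Many cytosolic chaperones are induced by heat shock factors, and many chaperones of the endoplasmic reticulum by the unfolded protein response. Of 18 heat shock genes 15 were lower (83.3%) and 0 higher, beside 14.8% and 16.5% of all tested genes. Among those lower, FKBP4 fell from 331, 319 and 323 CPM to 202, 200 and 190 (log2 fold change -0.72, SE 0.07). HSPA9, a mitochondrial chaperone, fell by 0.55 (SE 0.06), STIP1 by 0.53 (SE 0.06) and HSPA8 by 0.45 (SE 0.06). HSPA1A and HSPA1B, near-identical copies of each other, had at most 1 count per library and were not tested. XBP1, the factor that IRE1 activates by splicing its mRNA, was at 1026, 930 and 972 CPM in DMSO and at 621, 600.4 and 605 with dCeMM-1 (-0.68, SE 0.06). CALR and HSPA5, chaperones of the endoplasmic reticulum, each fell by 0.37 (SE 0.06), while ERN1, which encodes IRE1, rose by 0.48 (SE 0.12). The unfolded protein response list had 6 lower and 1 higher of 20, so most members did not pass (10 were lower with the 6 libraries alone). FKBP4 and XBP1 were called lower on the spike-in scale.

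ATF4 targets, genes of amino acid supply and the integrated stress response, had 9 lower (40.9%) and 2 higher (9.09%) of 22. Over all tested genes the shares were 14.8% and 16.5%. STC2 fell by 0.62 (SE 0.10), ATF5 by 0.43 (SE 0.08) and the amino acid transporter SLC7A5 by 0.41 (SE 0.07). NUP62, which overlaps ATF5 on the opposite strand, fell by 0.27 (SE 0.07). The 2 that rose were PPP1R15A, which restarts translation after stress (0.69, SE 0.10), and DDIT3, which encodes CHOP (0.46, SE 0.14). Cholesterol and lipid synthesis genes also had 9 lower (40.9%) and 2 higher (9.09%) of 22. The desaturase SCD fell by 0.66 (SE 0.06) and DHCR7 by 0.54 (SE 0.07), whereas INSIG1, which holds SREBP factors back, rose by 0.29 (SE 0.07). NF-kB genes had 12 lower (66.7%) and 1 higher (5.56%) of 18. NFKBIE went from 36.8, 40.2 and 35.5 CPM to 19.9, 21.7 and 18.95 (-0.90, SE 0.10), NFKBIA fell by 0.52 (SE 0.07) and CCR7, a chemokine receptor, by 1.06 (SE 0.20), and TRAF1 rose by 0.74 (SE 0.17). On the spike-in scale NFKBIE and CCR7 were lower and TRAF1 higher, PPP1R15A was the 1 ATF4 target called, with 0 lower, and 0 cholesterol genes were called in either direction.

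The remaining lists are set against backgrounds of 16.5% higher and 14.8% lower. Mitotic genes had 6 higher and 5 lower of 29 (CDK1 rose by 0.41, SE 0.08, and CDC20 fell by 0.37, SE 0.08), with 2 higher without DMSO replicate 2, 3 higher without dCeMM-1 replicate 3 and 3 lower without dCeMM-1 replicate 2. DNA replication and E2F targets had 6 higher and 6 lower of 34, with CCNE2, encoding cyclin E2, up by 0.64 (SE 0.10). Overlapping CCNE2 on the opposite strand, INTS8 rose by 0.33 (SE 0.07) and NDUFAF6 fell by 0.32 (SE 0.09). Homologous recombination and Fanconi anaemia genes had 5 higher and 4 lower of 26: BRCA2 rose by 0.64 (SE 0.14) and CHEK1 by 0.43 (SE 0.07), ATR fell by 0.50 (SE 0.08), and BRCA1 was not called at 0.22 (SE 0.09). Without DMSO replicate 1, 8 of that list were higher, and without DMSO replicate 2, 3 were. p53 targets had 5 higher and 3 lower of 20, with CDKN1A, encoding p21, up by 0.34 (SE 0.08) and AEN, which fell by 0.60 (SE 0.09). The cyclin K list had 2 higher and 6 lower of 24, led by CCNH, which fell by 0.73 (SE 0.08). CCNK fell by 0.27 (SE 0.06), beside a fall of 0.47 (SE 0.08) in CCDC85C, which overlaps it on the opposite strand. CDK12 and CDK13 were not called (-0.10 and 0.10, SE 0.07 for both). NRF2 targets had 1 higher (GCLM) and 1 lower (SLC7A11) of 18. With the 6 libraries alone, 9 recombination genes and 5 of the cyclin K list were higher, and 8 mitotic genes and 5 NRF2 targets were lower. None of the 13 mitochondrially encoded mRNAs was called in edgeR's test at an adjusted or an unadjusted p under 0.05 or by DESeq2 (1 was lower with the 6 libraries alone), and the mitochondrial share of gene counts was 5.14% ± 0.662 with DMSO and 5.26% ± 0.482 with dCeMM-1 (SD, n = 3, exact permutation p = 0.9).

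Gene structure, taken from the longest transcript of each gene, went with the direction of change. Of 307 protein-coding genes with 1 exon, 28.7% were higher and 5.21% lower. Of 1886 with 20 or more exons, 15.2% were higher and 19.7% lower, beside 17.5% and 17.4% of all 12332 protein-coding genes. These classes also differed in level, with medians of 6.21 CPM (1 exon) and 43.8 CPM (20 or more) in DMSO. Long non-coding genes had 17.3% higher and 2.92% lower of 1406 and a median log2 fold change of 0.29. They were also low, with a median of 0.801 CPM in DMSO against 28.4 for protein-coding genes. Among classes of transcript length, which were added after seeing the data, 24.5% of genes with transcripts of 5 kb or more were higher and 14.5% lower, against 5.64% and 12.4% of those under 1 kb.

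Computed in each library, the differences by exon number, gene type and transcript length kept the groups apart. The median of 1-exon genes minus that of genes with 2 or more exons, in log2(CPM + 0.5) centred on the mean of the 6 libraries, was -0.14, -0.09 and -0.05 in DMSO and 0.10, 0.09 and 0.08 with dCeMM-1, a difference of 0.18 (exact two-sided permutation p = 0.1, the smallest that 3 against 3 allow). The same difference for long non-coding against protein-coding genes was 0.16 and for transcripts of 5 kb or more against those under 2 kb 0.12 (exact permutation p = 0.1 for both). For genes spanning 100 kb or more against those under 20 kb it was 0.06, with groups that overlapped (exact permutation p = 0.2). Reads placed outside annotated exons, as a share of uniquely placed reads, moved the same way, 6.62%, 7.42% and 7.43% with DMSO and 7.95%, 8.40% and 7.94% with dCeMM-1. Its part in the gene structure values, and in the levels of intron-hosted genes such as SOS1-IT1, was not tested.

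**Figure D4:**
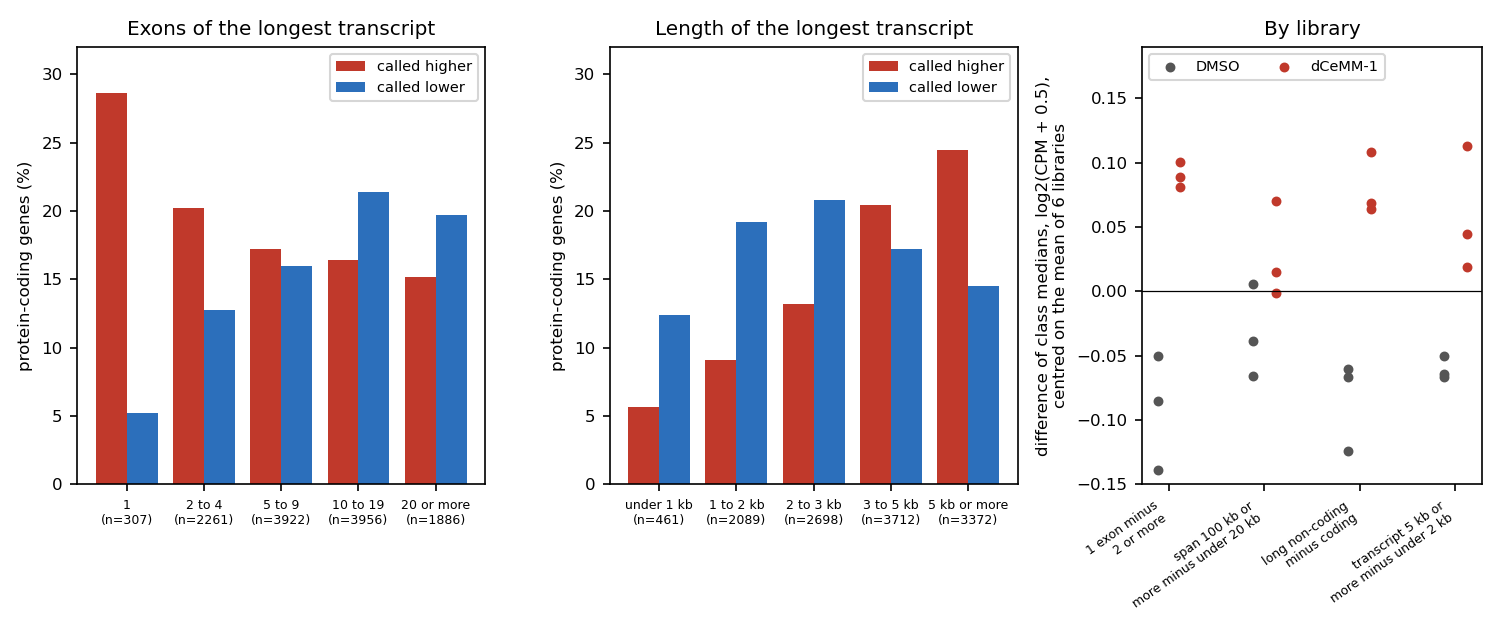
Share of protein-coding genes called higher (red) or lower (blue) by exon number (left) and by transcript length (middle), and the class difference of median log2(CPM + 0.5) in each library (right, DMSO grey, dCeMM-1 red). Single-exon genes were called higher in 28.7% and lower in 5.21%, and their points in the right panel do not overlap between groups.

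The compounds dCeMM-2, dCeMM-3 and dCeMM-4, known as degraders of cyclin K, were given to the same line at the same multiple of EC50 for the same time, which allows a direct comparison with dCeMM-1 in 3 pairs. Over all genes 80.3%, 82.5% and 71.7% differed from dCeMM-1 in the pairs with dCeMM-2, dCeMM-3 and dCeMM-4, so a difference at 1 gene is the rule. The spike-in scale also moved the median of all genes by 1.84, 1.88 and 0.63 in favour of dCeMM-1 relative to TMM. Adjusted p-values in this comparison are over all genes and then over the 3 pairs, and intervals are 95%.

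CYP1B1 was higher with dCeMM-1 than with each of the others. Its mean was 79.6 CPM with dCeMM-1, against 13.8, 1.70 and 7.22 CPM with dCeMM-2, dCeMM-3 and dCeMM-4. The log2 differences were 2.505 (2.28 to 2.73), 5.51 (5.20 to 5.83) and 3.46 (3.23 to 3.69). CYP1A1 was higher by 1.61, 2.19 and 1.84, and AHRR by 2.72, 2.89 and 2.69, all past an adjusted p of 0.05 in edgeR's test and with the same sign on the spike-in scale. AHRR averaged 50.3 CPM with DMSO, against 14.6, 13.2 and 15.1 with the other 3, which lay below it. CYP1A1 averaged 41.0 CPM with DMSO, against 34.4, 22.8 and 29.1 with the other 3, which also lay below it by TMM. For CYP1B1 the DMSO mean was 6.38 CPM, so by TMM dCeMM-3 lay below DMSO and dCeMM-2 and dCeMM-4 above it.

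TIPARP did not follow this order. It was higher than with dCeMM-3 by 2.87 (2.61 to 3.12), but against dCeMM-2 and dCeMM-4 the log2 difference was 0.09 in both (-0.13 to 0.30 and -0.12 to 0.30), with an adjusted p of 0.42 in edgeR's test. On the spike-in scale TIPARP was higher with dCeMM-1 by 1.92 and 0.73 in these 2 pairs.

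EGR1 was lowest with dCeMM-1 on the TMM scale, with log2 differences of -2.34, -1.47 and -1.05 against dCeMM-2, dCeMM-3 and dCeMM-4. Its mean was 67.5 CPM with DMSO and 8.10 with dCeMM-1, against 40.8, 22.5 and 16.7 with dCeMM-2, dCeMM-3 and dCeMM-4. By TMM these other compounds thus lay below DMSO as well. On the spike-in scale the differences were -0.51, 0.40 and -0.43, so the sign against dCeMM-3 turned and 2 of the 3 calls were lost. FOS was lower than with each of them on either scale, with TMM differences of -5.39, -3.75 and -1.97. The mean of FOS was 1.78 CPM with dCeMM-1 against 75.3, 24.1 and 7.01 with the others. With DMSO it was 13.0 CPM, so by TMM dCeMM-2 and dCeMM-3 lay above DMSO and dCeMM-4 below it.

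RBM14 averaged 20.1 CPM with dCeMM-1, against 205, 35.3 and 481 CPM with dCeMM-2, dCeMM-3 and dCeMM-4. It averaged 71.5 CPM with DMSO, so by TMM dCeMM-2 and dCeMM-4 lay above DMSO and dCeMM-3 below it. The log2 differences were -3.35 (-3.53 to -3.18), -0.82 (-0.9998 to -0.63) and -4.58 (-4.75 to -4.40), and against dCeMM-3 the sign turned on the spike-in scale (1.07). RBM39 was higher with dCeMM-1 by 1.23, 2.18 and 0.33, and RBM23 by 3.71, 3.41 and 2.23, with the same sign on the spike-in scale. RBM39 averaged 314 CPM with DMSO and 561 with dCeMM-1, against 239, 123 and 445 with dCeMM-2, dCeMM-3 and dCeMM-4. By TMM it thus lay above DMSO with dCeMM-4 as well, and below DMSO with dCeMM-2 and dCeMM-3. RBM23 averaged 111 CPM with DMSO and 131 with dCeMM-1, against 9.88, 12.3 and 27.9 with the other 3, so most of its difference lay in their lower levels. Of the FOXO genes, SESN3 was higher with dCeMM-1 by 1.90, 0.90 and 1.79, whereas ARRDC3 was lower than with dCeMM-2 and dCeMM-4 (-1.11 and -1.04 by TMM, 0.74 and -0.39 on the spike-in scale) and higher than with dCeMM-3 (1.07). RSRP1 was not called against dCeMM-2 at -0.13 (-0.38 to 0.11, 1.71 on the spike-in scale), was lower than with dCeMM-4 by TMM at -0.29 (-0.54 to -0.05, 0.31 on the spike-in scale) and was higher than with dCeMM-3 (1.79).

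**Figure D5:**
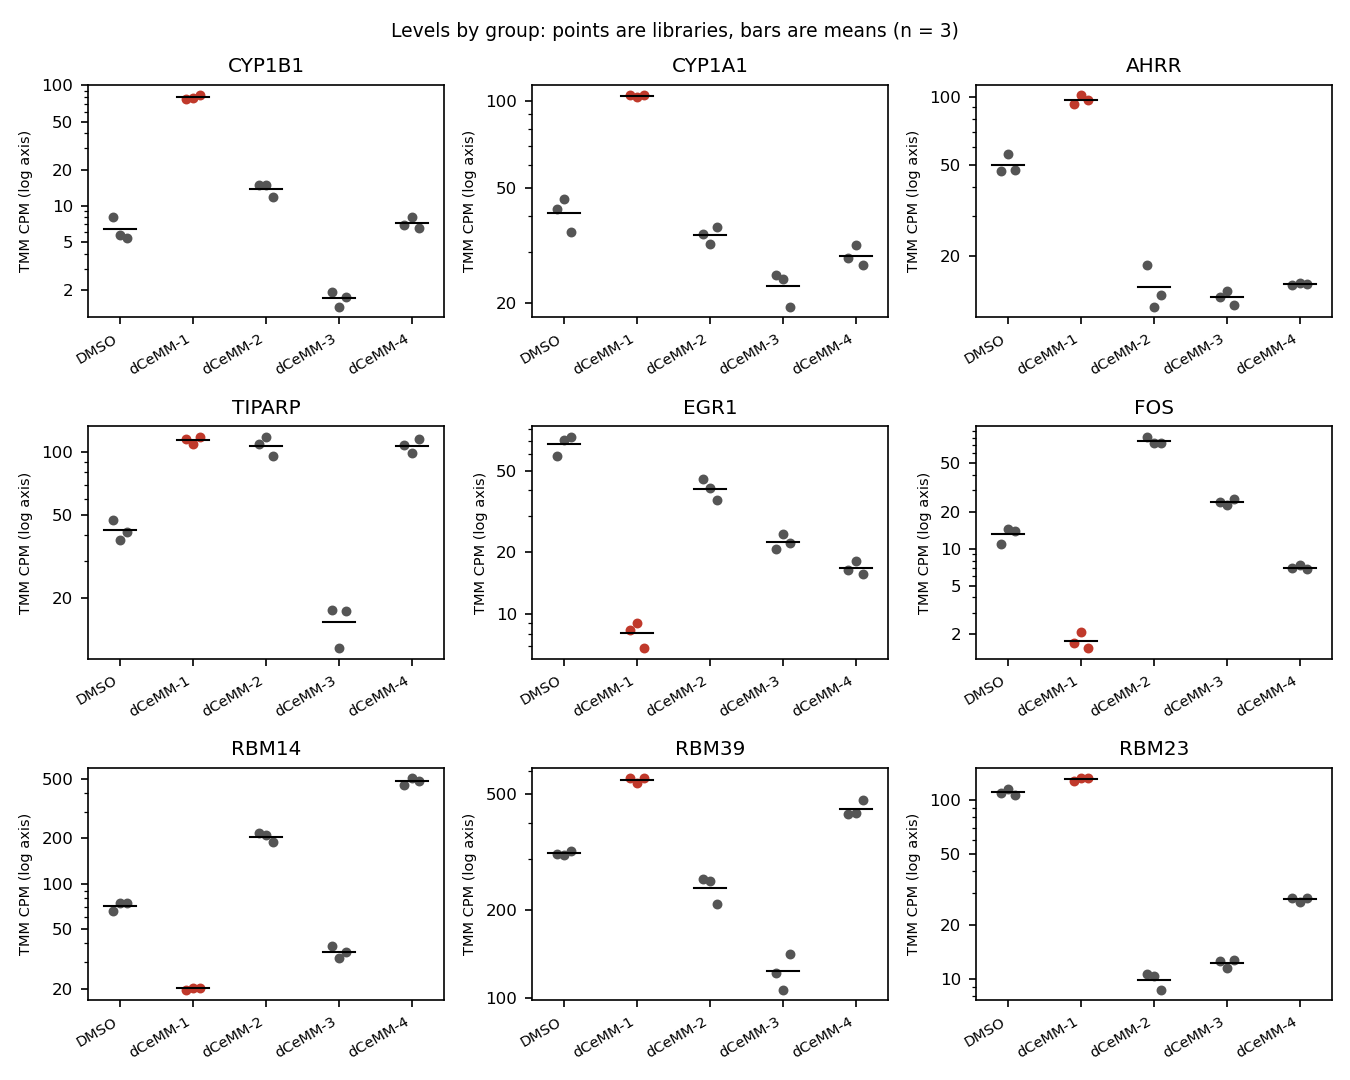
TMM-scaled CPM (log axis) of 9 genes in each library of DMSO, dCeMM-1 (red), dCeMM-2, dCeMM-3 and dCeMM-4, with bars at the means of 3 libraries. CYP1B1 is highest with dCeMM-1 at 77.3 to 83.0, TIPARP has means of 115, 108 and 108 with dCeMM-1, dCeMM-2 and dCeMM-4, and RBM14 is lowest with dCeMM-1.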

How the data were processed

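The authors deposited 1 table of raw read counts per library, with no normalization. Per the submitters' processing notes, Trimmomatic 0.32, STAR 2.5.2b, Picard, HTSeq 0.11.2 and the builds GRCh38.p7 and hg38 were used, in no stated role or order. Strand setting and use of molecular identifiers are not given in the sources used here, so reads of overlapping genes on opposite strands cannot be told apart. Reads placed at several positions carry no gene count. Of 58051 gene identifiers, 57447 matched GENCODE 29, which gave symbols, coordinates (GRCh38) and structure; 92 ERCC and 7 SIRV rows and 5 HTSeq summary rows stayed out of library sizes and tests.

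Genes passing filterByExpr (15055) were fitted with edgeR 4.0.16 (R 4.3.3, limma 3.58.1) by robust quasi-likelihood with TMM scaling on all 18 libraries, 1 coefficient for each of 6 groups and 12 residual degrees of freedom. Adjusted p-values are Benjamini-Hochberg with a threshold of 0.05. The fit was tested on counts simulated with the same spread for every gene and few changed genes. That setting is simpler than these data. Alternatives were DESeq2 (1.42.0) and its size factors, library size alone, spike-in scaling, no filter, the 6 libraries alone, a replicate block and each library left out.

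Genes were named by rule: the 20 largest rises and falls among protein-coding and the 5 among other genes, with non-overlapping groups and at least 5 CPM in the higher group, in each of 31 lists (694 genes) at most 6 members, taken by adjusted p from the smallest, and a fixed set including RBM39, its ligase, AHR and early genes. SOS1, overlapping neighbours and BCL2L11, BOP1, BRCA1, DDIT3, FOSL2, FOXO1, FOXO4, IER2, INSIG1, JUNB, KLF6, MYB, NCL, NPM1, NQO1, POLR1A, SOCS1, SOCS2 and TRAF1 were named after their values were seen. The comparison, the lists and this rule were chosen with earlier results of these data known. Promoter sequences are from RefSeq (GRCh38.p14). Intervals cover the spread between libraries. Same-numbered replicates of the 2 groups did not deviate together (correlations 0.0423, 0.088 and -0.041), so no pairing was used. Replicates of a group differed by more than counting noise (chi-square per degree of freedom from 2.53 to 8.1). Some named genes are not reported here.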

Additional observations from a re-analysis of the deposited data

Results flagged for a closer look

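Reads outside annotated features, which no comparison of genes uses, took 8.10% of uniquely placed reads with dCeMM-1 (8.10% ± 0.264, SD, n = 3) against 7.16% ± 0.465 with DMSO. This was picked out because all 3 dCeMM-1 libraries lay above all 3 DMSO libraries (exact two-sided permutation p = 0.1, the smallest that 3 against 3 allow). The difference was 0.944 percentage points and ranged from 0.676 to 1.08 with 1 library left out. The other 4 treatments of the series ranged from 7.42% to 13.2%. The table does not say whether these reads lie in introns or between genes, and what they are was not tested.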

How the results depend on the processing

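Called genes numbered 2482 higher and 2229 lower by TMM, and 2158 and 2535 with DESeq2 size factors, 2784 and 1768 with library size alone, 1847 and 2393 with DESeq2, 2091 and 1738 without the filter, 2592 and 2826 with the 6 libraries alone, and 1783 to 2208 and 1752 to 2082 with 1 library left out. Spike-in scaling gave 426 and 202. On that scale the 6 libraries alone gave 1154 and 517, ERCC alone 395 and 185, SIRV alone 447 and 211, and leaving out 1 library 77 to 312 higher and 49 to 177 lower; the cause was not tested. With the replicate block, 2445 and 2225 were called by TMM and 298 and 150 by spike-ins, but the numbers do not pair the samples. No gene was called in opposite directions by TMM and by any of the 13 alternatives run on the TMM calls. Of the 235 named genes 202 passed the threshold, none of these 202 changed sign in the 13 alternatives, and 84 kept the call under spike-in scaling, 202 with the block and 188 to 197 with 1 library left out. The class difference by exon number stayed between 0.15 and 0.21.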
